A study of Mus musculus with 6 samples.

Results

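The 39 genes described here encode enzymes of purine and pyrimidine metabolism. They were chosen by name: 18 of de novo synthesis, 6 of deoxynucleotide synthesis, 7 of salvage, 6 of breakdown and 2 of nucleotide interconversion. Each was found by its symbol among the 37753 table entries that held expression values. Of the 39 members, 38 had a mean FPKM (mapped fragments scaled by exon length and library size) of at least 1 over the 6 libraries and were tested, together with 12461 entries in all. The exception was Gda.

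RNA-seq libraries came from 3 preparations of primary mouse mammary epithelial cells (MEC 1 to 3) and from 3 cell lines of mammary tumors (MEKO 199, 233 and 336). MEC carried the genotype label WAPCre+, and each preparation pooled 3 to 5 virgin females of 10 to 12 weeks, grown on collagen I with 5% serum, EGF and insulin until RNA was taken at 90% confluence. MEKO lines carried the label Mapk8KO Mapk9KO Cre+, a deletion by Cre of the genes that encode the JNK protein kinases. They were grown from tumors of mice that had borne litters, with 2 passages on collagen I before standard dishes and a growth medium for which no EGF or insulin is listed. The paper lists more serum in this growth medium than the 5% given for MEC. Both groups had the strain label C57/Bl6J and carried the Wap-Cre transgene, in which a milk protein promoter drives Cre recombinase in luminal mammary epithelium at lactation. Each line stood for 1 tumor. The paper bred its females at 10 to 12 weeks and watched for tumors after weaning, so the tumor mice were older than the MEC donors. Genotype, tumor origin, parity, animal age, medium and time in culture changed together between the groups. Their parts in any difference cannot be told apart.

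Nucleotides come from separate routes. De novo synthesis builds the purine ring on ribose phosphate and the pyrimidine ring from glutamine, bicarbonate and aspartate, and it draws on folate for carbon units. Salvage attaches phosphate or ribose phosphate to nucleosides and bases that are already made. The enzymes grouped here as breakdown strip nucleotides to nucleosides and bases, or deaminate nucleosides and bases, as Cda, Ada and Gda do. Ribonucleotide reductase and thymidylate synthase then supply the deoxynucleotides of DNA, and many of these genes are more active in dividing cells.

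Mapk9 was at 13.5% to 33.6% of the MEC mean in the 3 lines, and Mapk8 at 6.09% to 26.4%, which goes with the labels. All 7 luminal marker genes were lower in every MEKO line than in every MEC library, with a summed FPKM of 5362 to 8916 in MEC and 789 to 1962 in MEKO. Line 199 had a basal marker sum of 1865 and a fibroblast marker sum of 1081, whereas lines 233 and 336 had basal sums of 10.1 and 45.1 and fibroblast sums under those of every MEC library. The sums of line 199 rested on some of the markers. Col1a1 and Col1a2 (600 and 408 FPKM) made up most of its fibroblast sum, while Dcn and Lum were lower than in every MEC library. Acta2, Krt5 and Krt14 (719.5, 608.1 and 521.5 FPKM) made up most of its basal sum. Acta2 was just under the lowest MEC library (736.4 in MEC 3), whereas Mylk and Oxtr (0.714 and 0.013) were far below every MEC library. The leukocyte sum was 22.7 to 45.1 in MEC and 0.947 to 24.9 in MEKO, and the endothelial and adipocyte sums did not pass 18.6 in any library. In line 336, which had the highest leukocyte sum of the lines, Cd68 (23.45 FPKM) made up most of it. Of the 7 leukocyte markers, 4 were lower in every line than in every MEC library. In these bulk libraries, fewer cells of a type and less RNA per cell cannot be told apart. MEC 3 stood apart from the other MEC libraries in genes of cell division: each of the 24 proliferation genes in the table (among them Mki67 and Top2a) was lowest in MEC 3 of the 3 MEC libraries, compared with 39.3% of all tested genes. The summed FPKM of these proliferation genes was 1015, 1099 and 462 in MEC 1 to 3 and 1755, 1185 and 1198 in lines 199, 233 and 336. Their median log2 fold change (MEKO minus MEC) was 0.74. By limma 0 of 24 were called, compared with 2.64% (higher) and 7.26% (lower) of all tested genes. An unadjusted p under 0.05 was found for 7 (29.2%), compared with 28.2% of all tested genes. The part of cell composition and of proliferation in the results below was not tested.

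Adk and Cad rose in MEKO and Cda fell, and these were the members that passed the test. A gene was called when limma on log2(FPKM + 1) gave an adjusted p under 0.05 and a log2 fold change beyond 0.75 in either direction. By this rule 2 of 38 tested members were higher in MEKO (5.26%), compared with 2.64% of all tested genes. In the other direction 1 of 38 was lower (2.63%), compared with 7.26% of all tested genes. Most other members lay above the MEC mean without passing: 29 of 38 log2 fold changes were above 0 (76.3%, against 51.2% of all tested genes), with a median of 0.49 against 0.01. For 12 of 38 (31.6%) the unadjusted p from limma was under 0.05, close to the 28.2% of all tested genes. Of the 38, 15 (39.5%) were higher in all 3 MEKO lines than in all 3 MEC libraries, compared with 18.5% of all tested genes. In the opposite direction the count was 1, compared with 18.7% of all tested genes. MEC 3 was the lowest MEC library for 29 of 38 members (76.3%). Without MEC 3 the median of the members was 0.25, and Adk and Cad were called but Cda was not. Without MEC 1 or without MEC 2, 0 members were called in either direction by limma. Calls over all tested genes also fell then, from 329 to 48 and 56 higher and from 905 to 211 and 245 lower. Without MEKO 233 Cad was not called.

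**Figure D1:**
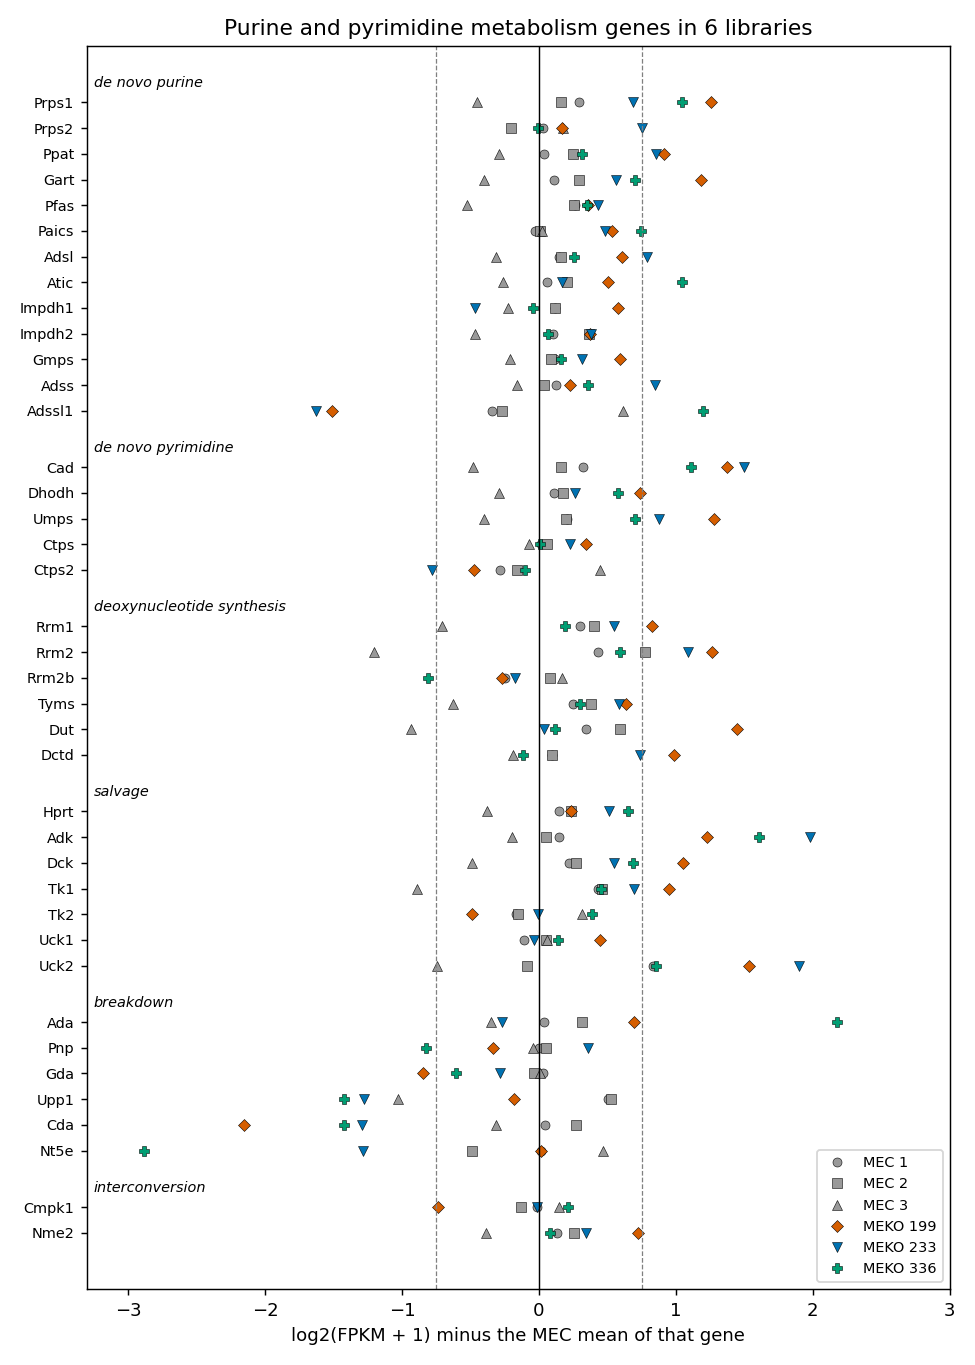
Each point is the log2(FPKM + 1) of 1 library minus the MEC mean of that gene, for the 39 members grouped by their step; grey shapes are the 3 MEC libraries, colored shapes the 3 MEKO lines, and dashed lines mark 0.75 on either side of the MEC mean. Adk and Cad lie beyond 0.75 in every line and Cda lies below it in every line, while most breakdown genes are spread to the left in lines 233 and 336.

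Among the 13 genes of de novo purine synthesis, 12 log2 fold changes were above 0 (92.3%, against 51.2% of all tested genes), with a median of 0.48. By limma 0 were called in either direction, compared with 2.64% (higher) and 7.26% (lower) of all tested genes. An unadjusted p under 0.05 was found for 5 (38.5%), compared with 28.2% of all tested genes. Prps1 and Prps2 make phosphoribosyl pyrophosphate, the activated ribose on which the ring is built. Prps1 was at 23.4, 21.3 and 13.5 FPKM in MEC 1 to 3 and at 46.6, 31.1 and 40.1 in lines 199, 233 and 336. Its groups did not overlap, and its log2 fold change of 1.00 (SE 0.26) did not pass, with an adjusted p of 0.0582 from limma. Prps2 had a log2 fold change of 0.30 and overlapping groups. Ppat, the amidotransferase that commits the pathway, had a log2 fold change of 0.69 (adjusted p = 0.115 from limma), and its lines were all above its MEC libraries.

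The ring is then closed by Gart, Pfas, Paics, Adsl and Atic. Gart, which carries several activities in a joint protein, was at 42.1, 48.0 and 29.2 FPKM in MEC and at 89.8, 58.0 and 64.0 in lines 199, 233 and 336. The groups were apart, with a log2 fold change of 0.81 (SE 0.25) and an adjusted p of 0.0955. Paics, which adds carbon dioxide and aspartate to the growing ring, was the most abundant de novo member. It was at 112, 114 and 116 FPKM in MEC and at 165, 160 and 192 in lines 199, 233 and 336. The MEC libraries lay close together and the lines were all above them. Its log2 fold change was 0.59 (SE 0.13) with an adjusted p of 0.0403, so it passed on p and missed the fold threshold. Pfas (0.38), Adsl (0.55) and Atic (0.57) had smaller or more variable differences, and Atic overlapped between the groups.

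No gene of the branch from IMP to AMP and GMP was called. Impdh1 and Impdh2, which carry out the rate-limiting step to GMP, had log2 fold changes of 0.02 and 0.27, and the direction of Impdh1 changed with the scaling. Gmps, the next enzyme to GMP, had 0.36. Adss, the housekeeping enzyme of the AMP branch, had 0.48 with all lines above MEC. Adssl1, its muscle form, split the lines: it was at 3.57, 3.81 and 7.84 FPKM in MEC and at 1.03, 0.871 and 12.3 in lines 199, 233 and 336. Lines 199 and 233 were below every MEC library and line 336 above every one of them.

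Of the 5 genes of de novo pyrimidine synthesis, 1 was called higher (Cad) and 0 lower, compared with 2.64% and 7.26% of all tested genes. Cad (chr5:31054780-31078479, plus strand, GRCm38) encodes the protein that holds the opening activities of the pathway, carbamoyl phosphate synthetase, aspartate transcarbamylase and dihydroorotase. It was at 17.2, 15.3 and 9.41 FPKM in MEC 1 to 3 and at 36.7, 40.2 and 30.5 in lines 199, 233 and 336. Every line was above every MEC library, with means of 14.0 ± 4.05 (SD, n = 3) and 35.8 ± 4.93 (SD, n = 3). The log2 fold change was 1.33 (SE 0.25, 95% interval 0.73 to 1.93), and the adjusted p was 0.0245 from limma, with 0.0242 to 0.0827 over the 14 alternatives. The call was lost without MEC 1, without MEC 2 or without MEKO 233 (adjusted p = 0.0706, 0.0827 and 0.0643), where the log2 fold change was 1.49, 1.41 and 1.24.

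Umps, which forms UMP at the end of the pathway, was at 11.8, 11.7 and 7.40 FPKM in MEC and at 26.0, 19.4 and 17.1 in lines 199, 233 and 336. The groups did not overlap, and the log2 fold change of 0.95 (SE 0.25) missed the threshold with an adjusted p of 0.0590. Dhodh, the mitochondrial step between Cad and Umps, had 0.53, and its lines were likewise all above MEC. The CTP synthases did not follow them. Ctps had a log2 fold change of 0.19 and Ctps2 of -0.45, and both overlapped between the groups.

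Taking purine and pyrimidine together, 16 of 18 de novo log2 fold changes were above 0 (88.9%, against 51.2% of all tested genes). Their median was 0.50, against 0.01. The median was 0.39 without MEC 3 and 0.40 without MEKO 233. The lines were all above MEC for 11 of the 18, compared with 18.5% of all tested genes. By library, the median difference of the 18 genes from the MEC mean was 0.11, 0.16 and -0.28 in MEC 1 to 3 and 0.56, 0.46 and 0.36 in lines 199, 233 and 336.

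Promoter sequences were taken from RefSeq on GRCm38, from 250 bases before to 50 bases after each start site, and 36 of 39 members had one. The E-box CACGTG, which MYC family proteins and other factors can bind, was in 4 of the 36, 3 of them de novo genes, against 8.09% of all 27025 genes with a promoter. The stretches around these E-boxes are shown because they are the members with that motif. Capitals mark the E-box, which starts 203, 7, 110 and 61 bases before the RefSeq start sites of Paics, Atic, Impdh2 and Tyms. By GENCODE positions the Impdh2 stretch lies inside the gene (start 108560286) and the Atic stretch spans the start (71557150).
Paics, chr5:76951087-76951116, plus strand: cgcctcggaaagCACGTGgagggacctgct
Atic, chr1:71557137-71557166, plus strand: ggacctcggggtCACGTGgggtcgacacgc
Impdh2, chr9:108560314-108560343, plus strand: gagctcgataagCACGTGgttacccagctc
Tyms, chr5:30073669-30073698, minus strand: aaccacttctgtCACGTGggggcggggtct
None of these 4 genes was called, and their log2 fold changes were 0.59, 0.57, 0.27 and 0.51. The Paics stretch lies within Ppat, whose gene runs on the opposite strand and overlaps 8.7% of the Paics exons. The 3 called members are shown by the 100 bases before the most upstream annotated start.
Cad, chr5:31054680-31054779, plus strand: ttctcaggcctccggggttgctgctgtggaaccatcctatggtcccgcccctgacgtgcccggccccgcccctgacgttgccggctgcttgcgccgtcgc
Adk, chr14:21052474-21052573, plus strand: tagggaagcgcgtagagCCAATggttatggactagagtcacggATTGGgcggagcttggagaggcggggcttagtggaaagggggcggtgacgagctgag
Cda, chr4:138367993-138368092, minus strand: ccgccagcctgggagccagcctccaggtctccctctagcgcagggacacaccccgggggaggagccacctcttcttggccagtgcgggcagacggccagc
Capitals mark CCAAT, the box bound by NF-Y, on either strand, and Adk holds it 83 and 57 bases before the start. Over the windows of 250 and 50 bases, CCAAT was in 14 of 36 members and in 41.1% of all genes. The E2F letters TTTCCCGC, TTTCGCGC, TTTGCCGC or TTTGGCGC were in 2 members (Ppat and Prps2) and in 2.60% of all genes. The AP1 letters TGACTCA were in 2 members (Adssl1 and Upp1) and in 5.95% of all genes. All motifs were searched on both strands, and none of the 4 kinds was found in the windows of Cad and Cda. Sequence further than 50 bases after a start site was not searched, so motifs there would be missed.

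**Figure D2:**
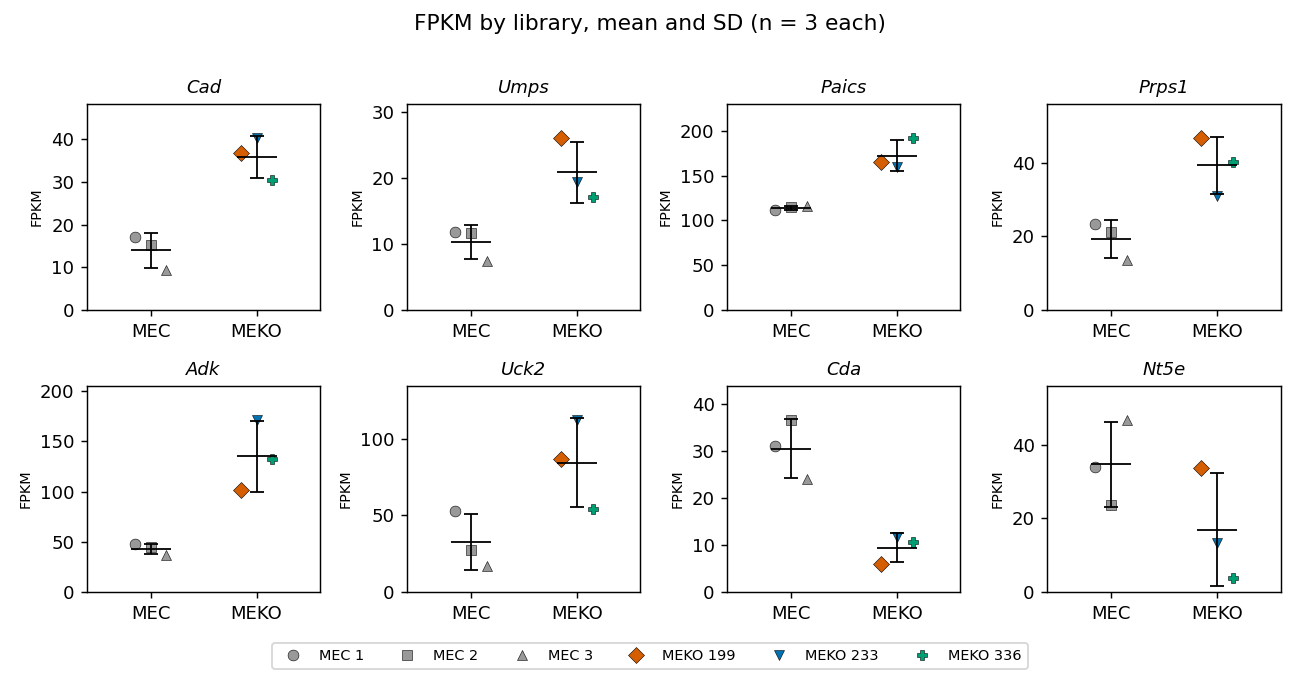
FPKM of 8 members in each library, with the mean and SD of each group (n = 3) as black bars; the vertical axis is linear, starts at 0 and differs between panels. The 3 lines lie above the 3 MEC libraries for Cad, Umps, Paics, Prps1, Adk and Uck2 and below them for Cda, while Nt5e overlaps.

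Deoxynucleotide synthesis had 5 of 6 log2 fold changes above 0 (83.3%, against 51.2% of all tested genes), with a median of 0.53. By limma there were 0 calls in either direction, compared with 2.64% (higher) and 7.26% (lower) of all tested genes. An unadjusted p under 0.05 was found for 0, compared with 28.2% of all tested genes. Rrm2, the small subunit of ribonucleotide reductase that is made in S phase, was at 62.6, 79.8 and 19.6 FPKM in MEC 1 to 3 and at 112, 99.5 and 70.1 in lines 199, 233 and 336. MEC 3 was far below the rest and line 336 lay below MEC 2. Its log2 fold change was 0.98 (SE 0.52, adjusted p = 0.269 from limma), and without MEC 3 it was 0.38. Rrm1, the large subunit, had 0.52, and Rrm2b, the small subunit used outside S phase, had -0.42. Tyms, which makes dTMP and draws on folate, had 0.51, Dctd, which feeds it with dUMP, had 0.53, and Dut, which clears dUTP, had 0.54. Dut stood highest in line 199 (85.1 FPKM), with lines 233 and 336 (31.5 and 33.3) within the MEC range. The median of the 6 genes was 0.18 without MEC 3.

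Salvage genes had 6 of 7 log2 fold changes above 0 (85.7%, against 51.2% of all tested genes). Their median was 0.70. Of the 7, 1 was called higher (Adk) and 0 lower, compared with 2.64% and 7.26% of all tested genes. Adk (chr14:21052574-21448569, plus strand, GRCm38) encodes adenosine kinase, which turns adenosine into AMP. It was at 47.3, 44.4 and 37.1 FPKM in MEC and at 102, 171 and 132 in lines 199, 233 and 336. The lowest line was above the highest MEC library, and the means were 42.9 ± 5.27 (SD, n = 3) and 135 ± 35.0 (SD, n = 3). The log2 fold change was 1.61 (SE 0.22, 95% interval 1.07 to 2.14), with an adjusted p of 0.0106 from limma and 0.00242 to 0.0557 over the 14 alternatives. The call was lost without MEC 1 (adjusted p = 0.0523) and without MEC 2 (adjusted p = 0.0557), with log2 fold changes of 1.68 and 1.63.

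Uck2, the main uridine and cytidine kinase, was at 53.0, 27.6 and 17.1 FPKM in MEC and at 87.1, 112 and 53.9 in lines 199, 233 and 336. The groups touched without overlapping, since MEC 1 was just below line 336. The log2 fold change of 1.43 (SE 0.45) was the second in size of the positive ones, but the spread within MEC left it with an adjusted p of 0.0997. Its partner Uck1 had 0.18. Dck, which phosphorylates deoxycytidine, was at 15.2, 15.8 and 8.93 FPKM in MEC and at 27.9, 19.4 and 21.5 in lines 199, 233 and 336. Its lines were all above MEC, with a log2 fold change of 0.76 (SE 0.26) and an adjusted p of 0.119.

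Hprt, which recovers hypoxanthine and guanine, had 0.46, and the lines were all above MEC, line 199 by a margin within rounding (122.4 FPKM in both line 199 and MEC 2). Tk1, the thymidine kinase of S phase, had 0.70, and 0.25 without MEC 3. Tk2, the mitochondrial form, had -0.04, with a sign that changed between alternatives. Without MEC 3 the median of the 7 salvage genes was 0.27.

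Among the 5 tested breakdown genes 1 was called lower (Cda) and 0 higher, compared with 7.26% and 2.64% of all tested genes. Of the 5 tested log2 fold changes 4 were below 0, compared with 48.8% of all tested genes, with a median of -0.96. Cda (chr4:138338424-138367992, minus strand, GRCm38) encodes cytidine deaminase, which converts cytidine and deoxycytidine to uridine and deoxyuridine. It was at 31.0, 36.7 and 24.0 FPKM in MEC and at 5.99, 11.7 and 10.6 in lines 199, 233 and 336. Every line was below every MEC library, with means of 30.6 ± 6.32 (SD, n = 3) and 9.42 ± 3.02 (SD, n = 3). The log2 fold change was -1.63 (SE 0.28, 95% interval -2.30 to -0.95), with an adjusted p of 0.0197 from limma and 0.0055 to 0.0921 over the 14 alternatives. The call was lost when any MEC library was left out (adjusted p = 0.0921, 0.0890 and 0.0531 for MEC 1, 2 and 3), with log2 fold changes of -1.61, -1.49 and -1.78.

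The other breakdown genes varied between the lines. Nt5e encodes CD73, the surface enzyme that forms adenosine from AMP, and it was at 33.8, 23.6 and 46.7 FPKM in MEC and at 33.8, 13.2 and 3.65 in lines 199, 233 and 336. Line 199 was within the MEC range and the other lines were below it, so that the log2 fold change of -1.39 (SE 0.71) had an adjusted p of 0.254. Upp1, uridine phosphorylase, was at 9.37, 9.54 and 2.59 FPKM in MEC and at 5.46, 2.03 and 1.73 in lines 199, 233 and 336. MEC 3 lay among the lines, and the log2 fold change was -0.96 (SE 0.53, adjusted p = 0.290). Ada, adenosine deaminase, was at 3.91, 4.93 and 2.75 FPKM in MEC and at 6.72, 2.95 and 20.6 in lines 199, 233 and 336. Line 336 was far above the rest, and the log2 fold change of 0.87 (SE 0.60) had an adjusted p of 0.387.

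Pnp, which releases bases from purine nucleosides, had a log2 fold change of -0.27 and lay between 20.0 and 46.6 FPKM in the lines. Another annotated gene on the same strand overlaps 18.0% of its exons, so its reads may be shared. Gda, guanine deaminase, was at 1.10, 1.01 and 1.07 FPKM in MEC and at 0.145, 0.694 and 0.355 in lines 199, 233 and 336, all lower, at levels too low for the test. With no expression filter its log2 fold change was -0.58, with an adjusted p of 0.109 from limma. Breakdown genes had a median difference from the MEC mean of -0.18 in line 199, -1.27 in line 233 and -1.42 in line 336.

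De novo synthesis was thus set against salvage and breakdown by counts and medians. Over all tested genes, 2.64% were called higher and 7.26% lower, 51.2% of log2 fold changes were above 0, and the median was 0.01. The 18 de novo genes had 1 higher call, 0 lower calls and a median log2 fold change of 0.50. The 12 tested genes of salvage and breakdown had 1 call each way, 7 log2 fold changes above 0 and a median of 0.32. Within the latter, salvage had a higher median (0.70) than de novo synthesis and breakdown a lower one (-0.96), so the joined median does not describe either. Without MEC 3 the order of salvage (0.27) and de novo synthesis (0.39) was reversed, and the breakdown median was -1.15. The difference between the groups of genes was not tested, since genes of a pathway are not replicates. The interconversion genes did not pass the test. Cmpk1, the UMP and CMP kinase, had a log2 fold change of -0.18. Nme2, a nucleoside diphosphate kinase, was present only in an entry joined with Nme1 and Gm20390, whose log2 fold change was 0.38.

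Each line was also set against the MEC mean on its own, without a test, counting members beyond 0.75 on the log2 scale. Line 199 had 13 of 38 members above (34.2%, against 13.0% of all tested genes) and 2 below (5.26%, against 17.4%). Line 233 had 9 above (23.7%, against 10.0%) and 5 below (13.2%, against 18.0%). Line 336 had 7 above (18.4%, against 11.4%) and 5 below (13.2%, against 18.7%). In all 3 lines the share above was larger among members than among all tested genes, and the share below was smaller. The MEC mean includes MEC 3, the lowest MEC library for 76.3% of the members and 39.3% of all tested genes. These counts were not repeated without MEC 3. Line 199, with the highest count above, also had the highest summed proliferation FPKM.

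**Figure D3:**
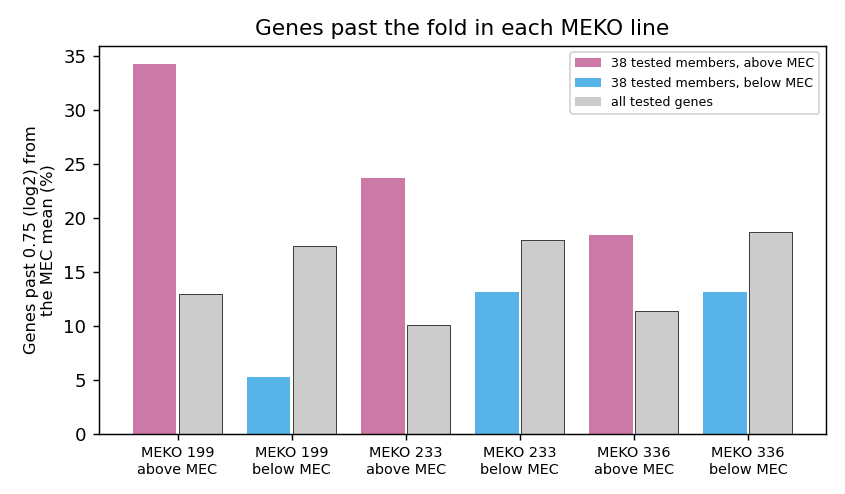
Bars give the percentage of the 38 tested members (colored) and of all 12461 tested genes (grey) whose log2(FPKM + 1) lay more than 0.75 above or below the MEC mean, for each MEKO line. The members exceed all genes above the MEC mean, by the widest margin in line 199 (34.2% against 13.0%), and lie under them below the MEC mean. This mean includes MEC 3, the lowest MEC library for 76.3% of the members and 39.3% of all tested genes.

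Isozyme balance was compared in 7 pairs as the log2 ratio of FPKM within each library, a scale on which levels of different genes can be compared per length. Rrm2 over Rrm2b was the pair whose groups did not overlap. Its log2 ratio was 3.58, 3.54 and 1.42 in MEC 1 to 3 and 4.45, 4.16 and 4.44 in lines 199, 233 and 336. The lines lay close together while MEC 3 stood far below the other MEC libraries. The mean difference was 1.50, with an exact permutation p (two-sided) of 0.1, the smallest that 3 against 3 allows, and 0.467 after adjustment over the 7 pairs. Uck2 over Uck1 (mean difference 1.28), Adss over Adssl1 (1.58), Tk1 over Tk2 (0.76), Prps1 over Prps2 (0.72) and Ctps over Ctps2 (0.66) had higher means in MEKO with overlapping groups. Impdh1 over Impdh2 had a mean difference of -0.26, and Impdh2 was the more abundant form in every library.

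**Figure D4:**
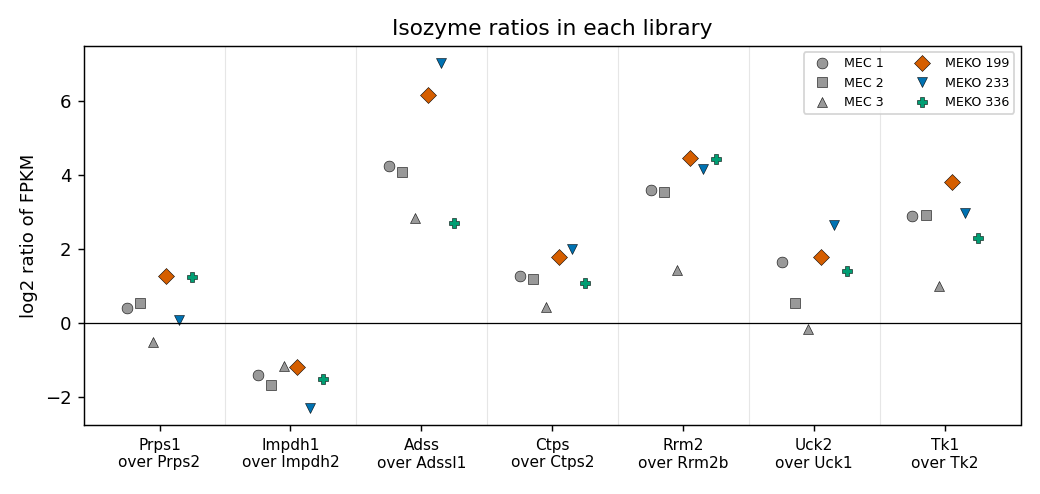
The vertical axis is the log2 ratio of the FPKM of each pair of isozymes in 1 library, with grey shapes for MEC 1 to 3 and colored shapes for the MEKO lines. Rrm2 over Rrm2b is the pair in which the 3 lines (4.16 to 4.45) lie above all 3 MEC libraries (1.42 to 3.58).

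The genes around adenosine were then compared as a list of hydrolases, transporters and receptors outside the 39 members. Of 19 genes, 14 were tested, 0 were called higher by limma (0.87 was the highest log2 fold change) and 4 were called lower, compared with 2.64% and 7.26% of all tested genes. Of the 14, 35.7% had an unadjusted p under 0.05, compared with 28.2% of all tested genes. The list was mixed, with 5 log2 fold changes above 0, 9 below and a median of -0.27. Slc29a2 (0.87), an equilibrative transporter, and Entpd6 (0.69) were higher in every line than in every MEC library, without a call. Entpd1, which encodes CD39 and strips ATP and ADP to AMP, was at 22.3, 30.5 and 29.6 FPKM in MEC and at 0.161, 1.47 and 2.01 in lines 199, 233 and 336. It fell by 3.78 on the log2 scale (SE 0.38, adjusted p = 0.00363 from limma), and the groups were far apart. Enpp3, another nucleotide hydrolase, fell by 2.20, and Alpl, the alkaline phosphatase that also removes phosphate from AMP, fell by 2.91. Slc28a3, a concentrative nucleoside transporter, fell by 2.38. Slc29a1, the main equilibrative transporter, had a log2 fold change of -0.80 that did not pass (adjusted p = 0.338), since line 199 was within the MEC range. The 4 lower calls were also made without MEC 3. Of the members that make or use adenosine next to these genes, Nt5e had a log2 fold change of -1.39, not called, and Adk 1.61, called. Ada, which also uses adenosine, had 0.87, not called. It was above every MEC library in lines 199 and 336 and within the MEC range in line 233.

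**Figure D5:**
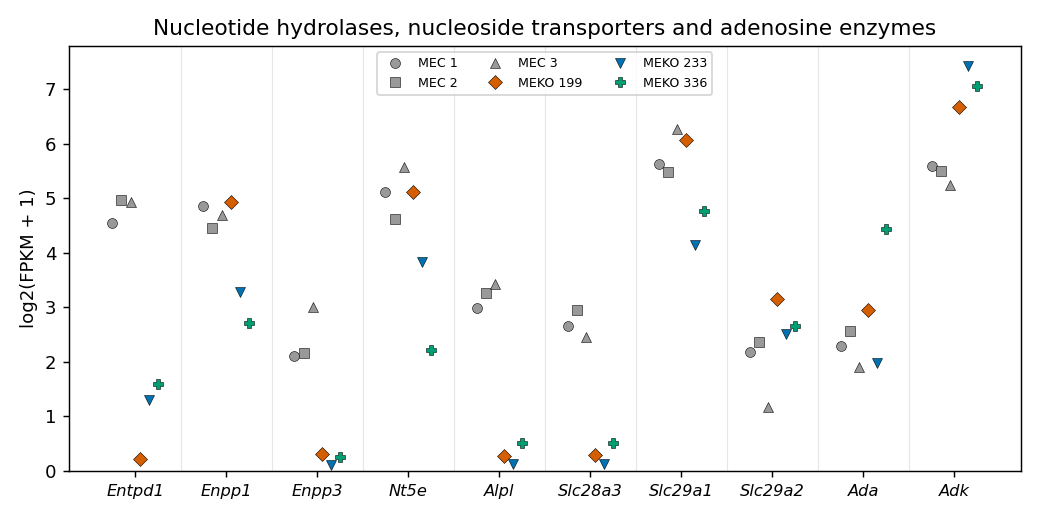
The vertical axis is log2(FPKM + 1) of 10 genes that handle nucleotides and nucleosides outside the cell, carry nucleosides across the membrane or act on adenosine, with 1 point a library. Entpd1, Enpp3, Alpl and Slc28a3 are low in all 3 lines, and Nt5e and Enpp1 are low in lines 233 and 336 but not in 199. Adk is high in all 3, and Slc29a2 lies above every MEC library in all 3 without a call. Ada, also not called, lies above every MEC library in lines 199 and 336 and within the MEC range in line 233.

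Folate and serine genes, which supply carbon units for purines and dTMP, had 24 tested members, of which 2 were called higher and 2 lower (2.64% and 7.26% of all tested genes). Phgdh, which opens serine synthesis, was at 57.2, 36.3 and 20.7 FPKM in MEC and at 198, 203 and 106 in lines 199, 233 and 336. It rose by 2.17 on the log2 scale (SE 0.42, adjusted p = 0.0274 from limma), a call lost with library weights and without MEC 2, MEC 3 or MEKO 233 (adjusted p = 0.0595, 0.103, 0.0765 and 0.0714). Mthfd2l, a mitochondrial folate dehydrogenase, rose by 0.76 (adjusted p = 0.0462), but it was called in only 5 of 14 alternatives, with log2 fold changes of 0.65 to 0.87 and adjusted p of 0.0260 to 0.159. Its call was lost without any MEC library and without MEKO 233 or 336. Aldh1l1, which oxidizes formyl folate, fell by 1.83, and Amt, of the glycine cleavage system, fell by 2.30. The call of Aldh1l1 was lost without MEC 1, 2 or 3 (adjusted p = 0.0876, 0.0552 and 0.0610). The median of the list was 0.42, and 0.14 without MEC 3, where 0 were called higher and 1 lower. Among 35 other tested genes of nucleotide metabolism, 0 were called higher by limma and 2 lower, compared with 2.64% and 7.26% of all tested genes, with a median of 0.16. An unadjusted p under 0.05 was found for 6 (17.1%), compared with 28.2% of all tested genes. Ak3, the mitochondrial GTP to AMP phosphotransferase, fell by 1.87 (adjusted p = 0.00941), from 34.2, 30.2 and 43.3 FPKM in MEC to 10.4, 11.0 and 6.26 in lines 199, 233 and 336, and its call was lost without MEC 1 (adjusted p = 0.0561). Cmpk2, a mitochondrial UMP and CMP kinase known as an interferon-induced gene, fell by 2.54 (adjusted p = 0.0356). It was called in 8 of 14 alternatives, and its call was lost with no expression filter and without any MEC library (adjusted p = 0.109, 0.0917 and 0.119 for MEC 1, 2 and 3) or without MEKO 199 or 336.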

How the data were processed

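RNA-seq was analysed from 3 MEC and 3 MEKO libraries, grouped by sample title. The authors trimmed paired-end reads with Trimmomatic, aligned them to mm10 (GRCm38) with Bowtie2 and TopHat2 2.0.14, and deposited FPKM values from Cufflinks 2.2.1, which scale fragments by exon length and library size. The annotation and strand setting are not given in the sources used here, so overlapping genes on opposite strands (Ppat and Paics, and 19.7% of Gart exons with Gm15964) cannot be told apart. FPKM carries no read numbers, so depth is unknown and no counting interval was computed. The summed FPKM was 557991 to 638365 a library.

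For each member the entry with the highest mean whose name held the symbol was used (Dut and Uck2 had 2 entries each). The test was limma 3.58.1 (R 4.3.3) with a mean-variance trend, run on log2(FPKM + 1) of the 12461 entries with a mean FPKM of at least 1, and adjusted over all of them by the Benjamini-Hochberg method. Log2 fold changes are on this scale, which understates changes of low genes. Isozyme ratios were compared by exact permutation tests with scipy 1.17.1. The fit was tested on simulated data. All members are named by pathway step, and other lists by counts and their called genes. Slc29a1, Slc29a2, Entpd6 and Enpp1 were named after their values were seen. A gene chosen for another list is not reported here. Members and lists were chosen with earlier results of these data known. Gene positions are from GENCODE M21 and promoters from RefSeq, both GRCm38. Nothing shows that the numbers of MEC preparations pair them with lines. MEC preparations and lines are separate samples, with no batch in the labels. The other RNA-seq groups of the study were not analysed here.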

Additional observations from a re-analysis of the deposited data

How the results depend on the processing

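Results were recomputed under 14 alternatives. Cad, Adk and Cda were called under every alternative that kept all 6 libraries. With library weights 2 members were called lower (Upp1, log2 fold change -1.59, was added), with 600 higher and 1378 lower calls over all genes against 329 and 905. The weight estimate stopped before convergence. A filter at a mean FPKM of 5 gave 501 lower calls over all genes, and with no filter the salvage and breakdown median was 0.18, since Gda then enters. With 1 library left out in turn, member calls ranged from 0 to 2 higher and from 0 to 1 lower, calls over all genes from 48 to 568 higher and from 211 to 1398 lower, the de novo median from 0.39 to 0.56 and the salvage and breakdown median from 0.21 to 0.39. Fewer libraries remain in those fits, and the cause was not tested further. Quantile normalization moved the median of all genes from 0.01 to 0.10 and the share of higher calls from 26.7% to 37.9%. Small values changed sign: Impdh1 was -0.24 with library weights, -0.03 with upper-quartile scaling, and between -0.26 and 0.27 with a library left out (-0.09 without MEC 3, -0.26 without MEKO 199). Dut was -0.02 with library weights. Tk2 was 0.06 with quantile normalization, 0.19 with library weights, and between -0.25 and 0.19 with a library left out (0.12 without MEC 3, 0.19 without MEKO 199). With a library left out, Pnp ranged from -0.58 to 0.01 (without MEKO 336) and Cmpk1 from -0.37 to 0.10 (without MEKO 199). Members past the fold in each line stayed within 1.5 times in count under the other pseudocount and scalings. No paired analysis was possible because the groups share no replicate numbers. Genes with low FPKM are measured least precisely.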
